A study of Mus musculus with 15 samples.

Results

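The adult haemoglobin genes Hba-a1, Hba-a2, Hbb-bs and Hbb-bt were followed in nuclei sorted from the mouse ventral tegmental area, a midbrain region that holds dopamine neurons. These 4 genes, of 35976 in the deposited count table, were chosen by name, with their values in these libraries already known. Their levels and their differences between groups are therefore given as a description. How many of them passed the test run over all genes is stated beside the share of all genes that did, and nothing is read from those counts. The source was male mice heterozygous for DAT-Cre (B6.SJL-Slc6a3tm1.1(cre)Bkmm/J), in which the dopamine transporter locus drives Cre recombinase. They were 8 to 12 weeks old and received the Cre-dependent virus AAV5-DIO-KASH-HA in the ventral tegmental area, which had 14 days to express an HA-tagged protein on the nuclear envelope. Each library came from the pooled tissue of 2 mice. All groups carried the same allele and virus.

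Dopaminergic (DA) nuclei, sorted as HA-positive, came from 3 stages. Food-trained mice had worked for food for 7 days (n = 4 libraries). Maintenance mice had then taken cocaine intravenously at 0.3 mg/kg per infusion for 5 daily sessions of 1 hour and at 1.0 mg/kg per infusion for 10 daily sessions (n = 3). Abstinence mice, which the titles call craving, had followed that schedule and spent a further 21 days without cocaine in the home cage (n = 4). The labels list no such sessions or later days for food-trained mice. Between stages, cocaine therefore cannot be told apart from the sessions themselves or from elapsed time. HA-negative (nDA) nuclei came from food-trained mice only (n = 4), so that the stages could not be compared in nDA nuclei. The titles call the nDA samples neurons, but oligodendrocyte markers summed to 7217 to 21436 CPM in them. In DA libraries the same markers summed to 685 to 1438 CPM and microglial markers to 480 to 1030 CPM. RNA of glial genes was thus counted in both populations, and whether it came from glial nuclei was not tested. Libraries held 25813697 to 59046618 counts. Of 13 dopamine identity genes, 11 were higher in DA than in nDA nuclei by edgeR's quasi-likelihood test and 0 were lower. The labels do not say whether replicates came from separate cohorts, so the p-values below measure only the spread between these libraries.

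Haemoglobin of adult red cells is a tetramer of alpha chains, encoded in mice by Hba-a1 and Hba-a2, and beta chains, encoded by Hbb-bs and Hbb-bt, each holding a haem group that binds oxygen. The genes lie in an alpha cluster and a beta cluster on different chromosomes and are best known for very high expression in erythroid precursors. Mature mouse red cells have no nucleus but keep some globin messenger RNA. Haemoglobin transcripts have also been described in some neurons, midbrain dopamine neurons among them.

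In GENCODE M21 (GRCm38), Hba-a1 spans chr11:32283511-32284465 and Hba-a2 spans chr11:32296489-32297298, both on the plus strand. On the minus strand of the beta cluster, Hbb-bs spans chr7:103826534-103828096 and Hbb-bt spans chr7:103812524-103813996. All 4 are annotated as protein-coding. Their promoter sequences were taken from RefSeq (GRCm38.p6), where all 4 genes matched by symbol. The stretches below lie before the RefSeq start and are shown because the members varied together across libraries. Whether the motifs have a part in that was not tested. They run 5′ to 3′ in the gene's direction, and capitals mark the motifs searched.
Hba-a1 (chr11:32283630-32283659): cgcccttggagggcATATAAgtgctacttg
Hba-a2 (chr11:32296450-32296479): ccttggagggcATATAAgtgctacttgctg
Hbb-bs (chr7:103827941-103827970): ccagggcagagcATATAAggtgaggtagga
Hbb-bt (chr7:103813936-103813965): gccagcATTGGgtATATAAagctgagcagg

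Each stretch covers bases -42 to -13, counted back from -1 at the base before the start, and holds the TATA-type motif ATATAA. A longer stretch of Hba-a2, bases -120 to -4, also shows its CCAAT and CACCC motifs. Bases -95 to -66 of the beta genes are shown because they hold both motifs. In Hbb-bt, CCAAT also lies on the other strand at bases -80 to -76 and -36 to -32, where the capitals read ATTGG. Hbb-bt has a further CACCC at bases -104 to -100, outside the stretches shown.
Hba-a2 (chr11:32296372-32296488): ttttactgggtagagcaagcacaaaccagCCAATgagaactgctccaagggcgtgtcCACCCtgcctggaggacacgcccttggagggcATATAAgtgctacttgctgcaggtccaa
Hbb-bs (chr7:103827994-103828023): agccaCACCCtggtaagggCCAATctgctc
Hbb-bt (chr7:103813989-103814018): gggtaaCACCCtggcATTGGCCAATctgct

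The 120 bases before the RefSeq start were searched on both strands for motifs that did not overlap one another in the members. One is ATATAA, which is of the TATA type. Another is CCAAT, which the factor NF-Y binds. The others are CACCC, bound by erythroid Krüppel-like factors, and GATAA, bound by zinc finger factors such as Gata1. All 4 members held all of these but the last. Among 32851 windows of the same length in the table, 4.47% held ATATAA, 21.3% held CCAAT, 31.7% held CACCC and 0.286% held all 3. Only the motifs named were searched, and the alpha windows share almost all their sequence. The shares are therefore given as background and not as a test. GATAA was in 10.5% of windows and in none of the members' windows. Over the whole windows of the table, which run from 250 bases before the start to 50 bases after it, Hba-a1 and Hba-a2 were equal at 297 of 297 aligned bases, against 56.2% of aligned bases for Hbb-bs and Hbb-bt. A match describes letters in the window and is not a measured binding site. GENCODE places all 4 starts further upstream than RefSeq does, by 161 bases for Hba-a1, 3 for Hba-a2, 168 for Hbb-bs and 73 for Hbb-bt.

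The likeness within each pair also bears on the counts. Of the 100-base stretches of the longest Hba-a1 transcript, 56.5% also occurred in Hba-a2, and 74.5% of those of Hba-a2 occurred in Hba-a1. For the beta genes, 62.6% of the stretches of Hbb-bs occurred in Hbb-bt and 54.8% of those of Hbb-bt in Hbb-bs. Between Hba-a1 and Hbb-bs the shares were 0% in both directions. How reads that fit both genes of a pair were assigned is not given in the sources used here, so the split within a pair is uncertain and the sum of each pair is given as well.

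Haemoglobin transcripts were counted in every library. Values are CPM, in which each library's counts are divided by its total after TMM scaling, edgeR's correction for differences in library composition. Hba-a1 had 378, 184, 107 and 135 CPM in food-trained DA replicates 1 to 4, 92.4, 181 and 115 CPM at maintenance, and 79.6, 75.6, 98.4 and 68.7 CPM at abstinence. In nDA nuclei, Hba-a1 had 88.6, 136, 56.5 and 54.9 CPM. The lowest food-trained DA value lay above every abstinence value, while the maintenance values overlapped both DA groups and the nDA group overlapped all 3 DA groups.

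Hba-a2 is the other adult alpha gene. Its food-trained DA values were 182, 143, 76.3 and 69.1 CPM, its maintenance values 50.4, 107 and 61.7 CPM, and its abstinence values 48.3, 46.1, 50.2 and 38.0 CPM. The nDA values of Hba-a2 were 53.7, 69.9, 32.2 and 34.1 CPM. All 4 abstinence values lay below every value of the other DA groups, and the highest nDA value lay just above the lowest food-trained DA value.

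Hbb-bs is one of the adult beta genes. It had 470.0, 288, 139 and 135 CPM in food-trained DA nuclei, 133, 213 and 123 CPM at maintenance, and 99.8, 92.2, 106 and 63.5 CPM at abstinence. Its nDA values were 94.2, 123, 58.6 and 62.3 CPM. Every food-trained DA value of Hbb-bs exceeded every nDA value, and every abstinence value lay below every value of the other DA groups.

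Hbb-bt is the other adult beta gene. It had 61.3, 31.4, 16.8 and 17.1 CPM in food-trained DA nuclei, 4.71, 16.5 and 13.0 CPM at maintenance, 10.5, 10.2, 9.47 and 6.99 CPM at abstinence, and 13.7, 13.3, 8.33 and 7.66 CPM in nDA nuclei. The food-trained DA libraries lay above all others. Maintenance replicate 1 stood below all abstinence libraries for Hbb-bt, which was not so for any other member.

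**Figure D1:**
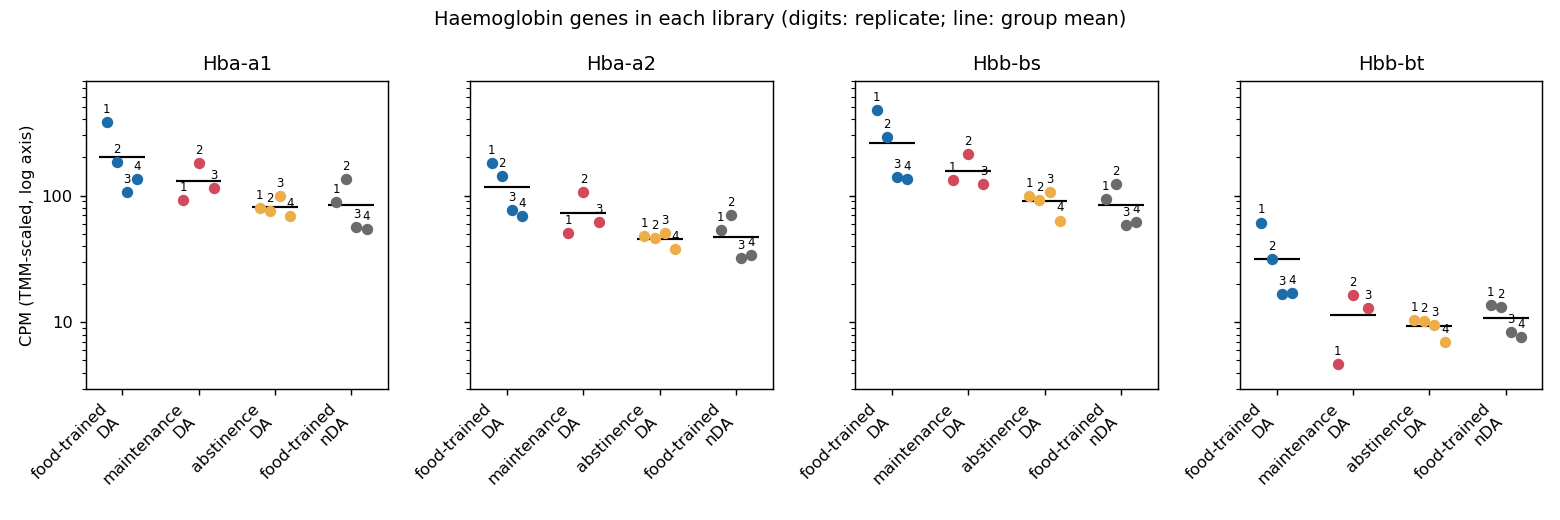
CPM of each haemoglobin gene (log axis) in every library, by group; points are libraries with their replicate number and lines are group means. The food-trained DA libraries range from 107 to 378 CPM for Hba-a1 and the abstinence libraries from 68.7 to 98.4 CPM.

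Per kilobase of the longest GENCODE transcript, Hbb-bs had the highest level in food-trained DA nuclei, 411 ± 252 CPM per kb (SD, n = 4). Hba-a1 followed at 288 ± 175, Hba-a2 at 212 ± 97.7 and Hbb-bt at 45 ± 29.7 CPM per kb. The order was the same in all 15 libraries, although the ratio of neighbours came close to 1 in some of them. Hbb-bs was 1.01 to 1.74 times Hba-a1 per kb, and Hba-a1 was 1.03 to 1.65 times Hba-a2. At abstinence the means were 144 ± 30.0 for Hbb-bs, 115 ± 18.2 for Hba-a1, 82.4 ± 9.64 for Hba-a2 and 13.2 ± 2.28 CPM per kb for Hbb-bt (SD, n = 4). These levels rest on the annotated lengths and on the uncertain split within pairs.

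The summed level of the 4 genes was 1091, 647, 339 and 356 CPM in food-trained DA nuclei, 280, 518 and 313 CPM at maintenance, 238, 224, 264 and 177 CPM at abstinence, and 250, 342, 156 and 159 CPM in nDA nuclei. The alpha pair made up 50.6 to 60.2% of the summed counts over all 15 libraries, with a median of 56.0%. Hba-a1 made up 56.4 to 67.5% of alpha counts (median 63.7%), and Hbb-bs made up 87.3 to 96.6% of beta counts (median 90.1%). The widest exact 95% binomial intervals reached 1.2, 1.54 and 1.23 percentage points to either side for the 3 shares. These intervals cover counting error only, since reads made by PCR without molecular identifiers are not independent molecules.

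By group, the alpha share was 53.3 ± 3.05% in food-trained DA nuclei (SD, n = 4), 54.3 ± 2.95% at maintenance (n = 3), 56.1 ± 2.96% at abstinence (n = 4) and 57.5 ± 1.78% in nDA nuclei (n = 4). These means differed by less than 2 SDs of the food-trained DA group. The highest Hbb-bs share, 96.6% (exact 95% binomial interval 96.1 to 97.0%), was in maintenance replicate 1, where Hbb-bt was lowest.

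**Figure D2:**
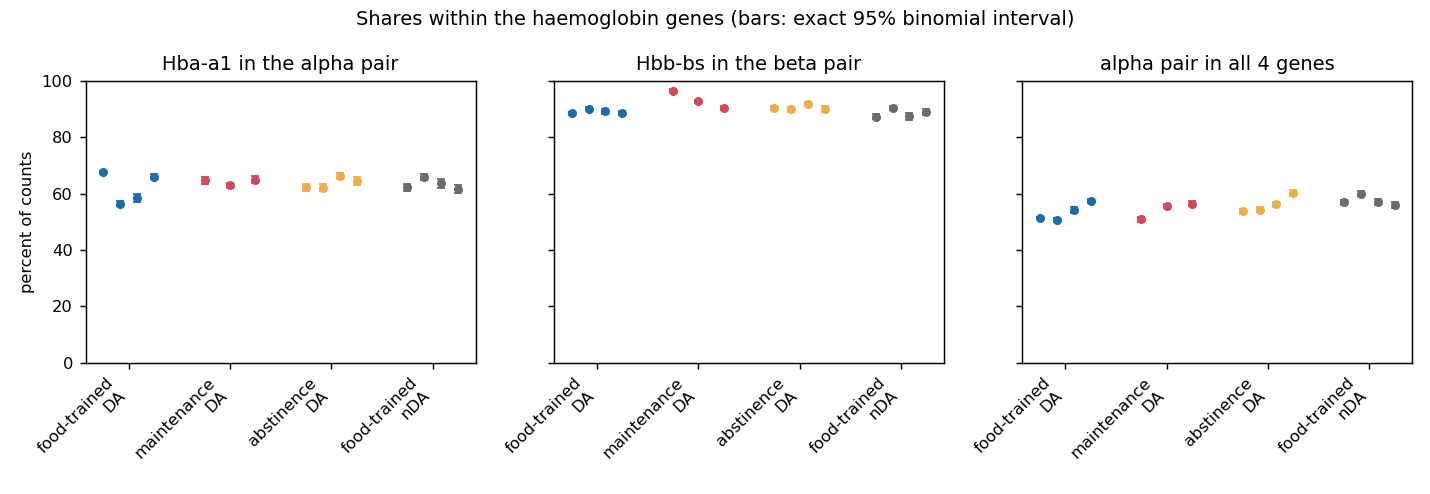
Percent of counts, per library and group: Hba-a1 in the alpha pair, Hbb-bs in the beta pair, and the alpha pair in all 4 genes; bars are exact 95% binomial intervals. The alpha pair stays between 50.6 and 60.2% in all 15 libraries.

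Across the 11 DA libraries, levels of alpha and beta genes went together. For the 4 pairs of an alpha and a beta gene, Pearson's r of log2 CPM ranged from 0.890 for Hba-a1 with Hbb-bt to 0.975 for Hba-a2 with Hbb-bs. Spearman's rho ranged from 0.845 to 0.991. These values are descriptions of the libraries in which the members were chosen. The within-pair correlations, where reads may be shared, were r = 0.958 for Hba-a1 with Hba-a2 and r = 0.856 for Hbb-bs with Hbb-bt.

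Without the 2 libraries farthest from the median of the first gene, r of the 4 alpha-beta pairs was 0.655 to 0.929. For Hbb-bs with Hbb-bt it was 0.511. As deviations from the stage means, r of the 4 alpha-beta pairs was 0.889 to 0.950. This pools the stages and keeps food-trained replicate 1, the highest library for every member, and it was not repeated without that library. The libraries share their total and their scaling factor, which enter all 4 values of a library.

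Genes other than the members were ranked by the correlation of their log2 CPM with the summed haemoglobin level over the 11 DA libraries. Among 17968 genes with a mean of at least 20 counts, the 8 named genes most like it were Arf3 (r = 0.902), Ptgdr2 (r = 0.872), Sncg (r = 0.846), Trappc5 (r = 0.845), LOC108168373 (r = 0.842), Urm1 (r = 0.842), Calb2 (r = 0.840) and Sirt5 (r = 0.836). The median r over all these genes was -0.05 and the 99th percentile was 0.593. Ptgdr2 had 4.70 and 3.30 CPM in food-trained replicates 1 and 2, 4.81 CPM in maintenance replicate 2 and 0 CPM in the other DA libraries. Trappc5 and Urm1 had 83.3 and 55.3 CPM in food-trained replicate 1, against at most 40.7 and 25.1 CPM in the other DA libraries. The ranking was not repeated without that replicate. Each member correlated with the sum at r = 0.897 (Hbb-bt) to 0.993 (Hbb-bs), to which it contributes.

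Between populations, the 4 members were higher in DA than in nDA nuclei of food-trained mice. The fitted log2 differences from edgeR were 1.27 (SE 0.45) for Hba-a1, 1.32 (SE 0.39) for Hba-a2, 1.62 (SE 0.45) for Hbb-bs and 1.57 (SE 0.50) for Hbb-bt. Summed within pairs, the alpha genes differed by 1.29 (SE 0.42) and the beta genes by 1.61 (SE 0.44). The summed level differed by 1.43 (SE 0.43) on the log2 scale, a 2.7-fold difference, with means of 608 ± 352 CPM in DA and 227 ± 88.6 CPM in nDA nuclei (SD, n = 4 each). The lowest DA sum, 339 CPM in replicate 3, lay just below the highest nDA sum, 342 CPM in replicate 2. Without DA replicate 1, the library with the highest sum, the log2 difference of the sum was 0.99.

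Of the members, 1 of 4 (Hbb-bs) passed an adjusted p of 0.05 over all genes, where 12.8% of 19786 genes tested did. That call was lost without DA replicate 1 or 2, or without nDA replicate 1, 3 or 4, and other settings called up to 4 of 4. DESeq2 called 4 of 4 members and 20.5% of 18950 genes, and without DA replicate 3 or 4 edgeR called 3 of 4 (Hba-a2, Hbb-bs and Hbb-bt) and 3740 or 3728 genes, 18% of those tested in each of these fits. In the fits where the call of Hbb-bs was lost, edgeR called 9.46 to 15.4% of genes. With a term for the replicate number, edgeR called 2 of 4 members (Hba-a2 and Hbb-bs) and 3.92% of 19786 genes. For 2 of 4 members (Hbb-bs and Hbb-bt) every DA library exceeded every nDA library, which held for 6.41% of all genes tested. Since the members were chosen with these values known, nothing is read from these counts. The median log2 difference over all genes tested was -0.21. In these sorted pools, more nuclei with the RNA and more RNA per nucleus or carried with it cannot be told apart.

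At maintenance, the members were lower than after food training by fitted log2 differences of -0.64 (SE 0.40) for Hba-a1, -0.69 (SE 0.37) for Hba-a2, -0.72 (SE 0.41) for Hbb-bs and -1.47 (SE 0.62) for Hbb-bt. The summed level differed by -0.72 (SE 0.39), between 608 ± 352 CPM (SD, n = 4) and 370 ± 129 CPM (SD, n = 3), and the groups overlapped. Without food-trained replicate 1 the difference of the sum was -0.28. EdgeR called 0 of 4 members and 0.131% of 19060 genes tested, and DESeq2 0 of 4 and 5.25% of 18598 genes. For 1 of 4 (Hbb-bt) every maintenance library lay below every food-trained library, against 4.14% of genes. Summed within pairs, the beta genes differed by -0.79 (SE 0.42) and the alpha genes by -0.66 (SE 0.38), and the groups overlapped for both sums.

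At abstinence the members had their lowest DA means. The fitted log2 differences from food training were -1.33 (SE 0.37) for Hba-a1, -1.37 (SE 0.35) for Hba-a2, -1.52 (SE 0.39) for Hbb-bs and -1.78 (SE 0.56) for Hbb-bt. Summed within pairs, the alpha genes differed by -1.34 (SE 0.35) and the beta genes by -1.55 (SE 0.39). The summed level was 226 ± 36.5 CPM (SD, n = 4), lower than after food training by a factor of 2.71, a log2 difference of -1.44 (SE 0.37). All abstinence sums lay below all food-trained sums, and without food-trained replicate 1 the log2 difference was -1.0.

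For 4 of 4 members every abstinence library lay below every food-trained library, which held for 0.944% of the 19060 genes tested. EdgeR called 0 of 4 members and 0% of all genes in this comparison, where 819 genes had an unadjusted p under 0.05. DESeq2 called 3 of 4 members (Hba-a1, Hba-a2 and Hbb-bs) among 140 genes, 0.753% of 18598. The abstinence and nDA means of the sum, 226 and 227 CPM, were close, and these groups overlapped. The maintenance and abstinence comparisons use the same food-trained libraries.

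Between abstinence and maintenance, the fitted log2 differences were -0.69 (SE 0.39) for Hba-a1, -0.68 (SE 0.36) for Hba-a2, -0.80 (SE 0.41) for Hbb-bs and -0.30 (SE 0.59) for Hbb-bt. Summed within pairs, the alpha genes differed by -0.69 (SE 0.37) and the beta genes by -0.76 (SE 0.41). The summed level differed by -0.72 (SE 0.38), and the highest abstinence sum, 264 CPM, lay below the lowest maintenance sum, 280 CPM. EdgeR called 0 of 4 members and 0.178% of genes tested, and DESeq2 0 of 4 and 4.26% of genes. For 2 of 4 (Hba-a2 and Hbb-bs) the groups did not overlap in this direction, against 4.52% of genes. The difference of the sum was -0.36 without maintenance replicate 2, and that of Hbb-bt was then 0.10.

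The dependence of CPM on transcript GC content differed between libraries, with slopes from -0.038 to 0.033 log2 CPM per percent of GC. The 3 maintenance libraries and nDA replicate 2 had the lowest slopes, -0.038 to -0.023, and the next lowest was -0.017 in food-trained DA replicate 2, so that no wide gap set these 4 apart. In a fit of all 15 libraries with a term for these 4, the summed haemoglobin difference was -1.60 (SE 0.67) between maintenance and food training and 0.16 (SE 0.69) between abstinence and maintenance, a change of sign. That term rests on 1 nDA library, and stage and the low slopes cannot be told apart from the maintenance libraries alone. The part of GC dependence in the haemoglobin differences was not tested otherwise.

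**Figure D3:**
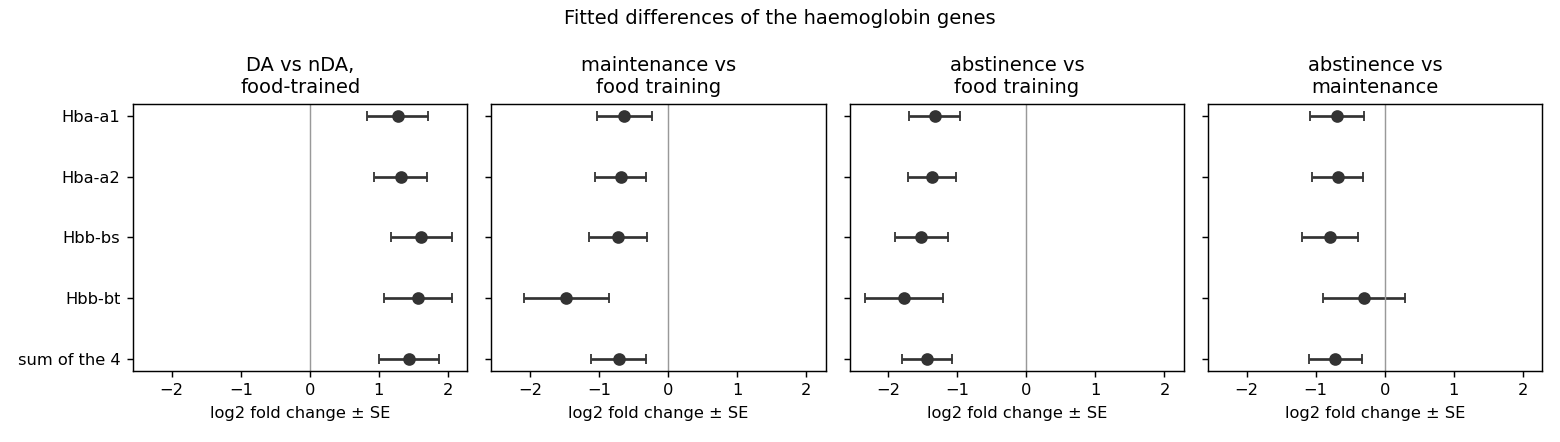
Fitted log2 fold change of each haemoglobin gene and of their sum (points) with its SE (bars) in 4 comparisons. The sum lies at 1.43 for DA against nDA and at -1.44 for abstinence against food training.

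Other globin genes were also examined. The embryonic genes Hba-x, Hbb-y, Hbb-bh1 and Hbb-bh2 had 0 counts in all 15 libraries, where 3 counts correspond to 0.05 to 0.11 CPM. Ngb (neuroglobin, a globin of neurons) ranged from 3.87 to 24.9 CPM and Cygb (cytoglobin) from 5.33 to 54.1 CPM. Hbq1b, a theta globin gene in the alpha cluster, ranged from 0 to 6.75 CPM. Of 5 other globin genes tested, 0 passed in any of the 4 comparisons in either direction. The median log2 difference of these 5 was -0.05 for DA against nDA and 0.47 for abstinence against food training, against -0.21 and 0.04 over all genes tested.

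The enzymes that make haem were measured as well. Of 9 tested, 0 passed as higher and 1 as lower in DA than in nDA nuclei, and 0 passed in either direction in the 3 stage comparisons. The gene that passed was Cpox (coproporphyrinogen oxidase), with 27 ± 5.33 CPM in DA and 67.0 ± 20.2 CPM in nDA nuclei (SD, n = 4 each; adjusted p = 0.0115, edgeR). Alas2, the erythroid form of the first enzyme of the pathway, had 28.2, 11.1, 8.86 and 7.83 CPM in food-trained DA nuclei, 1.42, 17.1 and 10.9 CPM at maintenance, 4.99, 15.4, 11.5 and 10.3 CPM at abstinence, and 16.5, 11.7, 16.3 and 11.5 CPM in nDA nuclei. DA replicate 1 was highest for both Alas2 and the members. The DA and nDA groups overlapped for Alas2, as they did for Hba-a1, Hba-a2 and the summed level, and the fitted log2 difference of Alas2 between them was 0.01 (SE 0.51). Over the 11 DA libraries, Alas2 correlated with the summed haemoglobin level at r = 0.468, above 96.4% of the genes ranked. This r includes DA replicate 1 and was not computed without it or within stages.

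Of 10 genes of haem transport, scavenging and breakdown tested between populations, 0 were higher and 1 was lower in DA nuclei. This was Slc48a1, a haem transporter, with 158 ± 36.9 CPM in DA against 267 ± 39.6 CPM in nDA nuclei (SD, n = 4 each; adjusted p = 0.0463, edgeR). Hmox1, which breaks down haem, had 9.50 ± 2.77 CPM against 2.46 ± 1.34 CPM (SD, n = 4 each) and did not pass (adjusted p = 0.104, edgeR). Of 9 tested between stages, 0 passed in any comparison. Of 12 globin gene regulators tested, 0 passed in any of the 4 comparisons; Gata1, the central factor of erythroid transcription, had 0 counts in all 11 DA libraries.

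Markers of red cells and their precursors were set beside the members. Of 17 such genes, 16 were in the table. Slc4a1 (the band 3 anion exchanger), Rhag, Gata1, Hemgn, Trim10 and Car1 had 0 counts in all 11 DA libraries, and Epb42 and Kel each had counts in 1 of the 11. Other genes of the list were counted in more of them. Alas2 had counts in all 11, Rhd (a Rhesus blood group protein) in 9 with up to 540 counts, Tspo2 in 5 with up to 247, and Klf1 (an erythroid Krüppel-like factor) in 4 with up to 317. Ermap had counts in 3 with up to 412 and Icam4 in 3 with up to 227. In nDA libraries, Slc4a1 had counts in 2 of 4 and Epb42 in 3 of 4, at no more than 25 counts. DA libraries had counts for fewer genes, 14841 to 19750 against 22733 to 23886 in nDA libraries, although their count totals overlapped. A 0 in a DA library may therefore be a gene that was missed. Over all 15 libraries the members together had 6669 to 63158 counts. The summed level of the marker list was 8.86 to 32.8 CPM in food-trained DA nuclei, 11.7 to 46.1 CPM at maintenance, 13.0 to 25.4 CPM at abstinence and 15.5 to 21.5 CPM in nDA nuclei, and Alas2 or Rhd was its most abundant gene in every library. Of 4 markers tested between populations and 6 between stages, 0 passed in any comparison. The fitted differences of the tested markers were positive for 3 of 4 between DA and nDA nuclei (median 0.04) and for 5 of 6 between maintenance and food training (median 2.05). They were positive for 4 of 6 between abstinence and food training (median 0.76) and for 2 of 6 between abstinence and maintenance (median -1.16). The part of red cell RNA in the haemoglobin values was not tested.

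**Figure D4:**
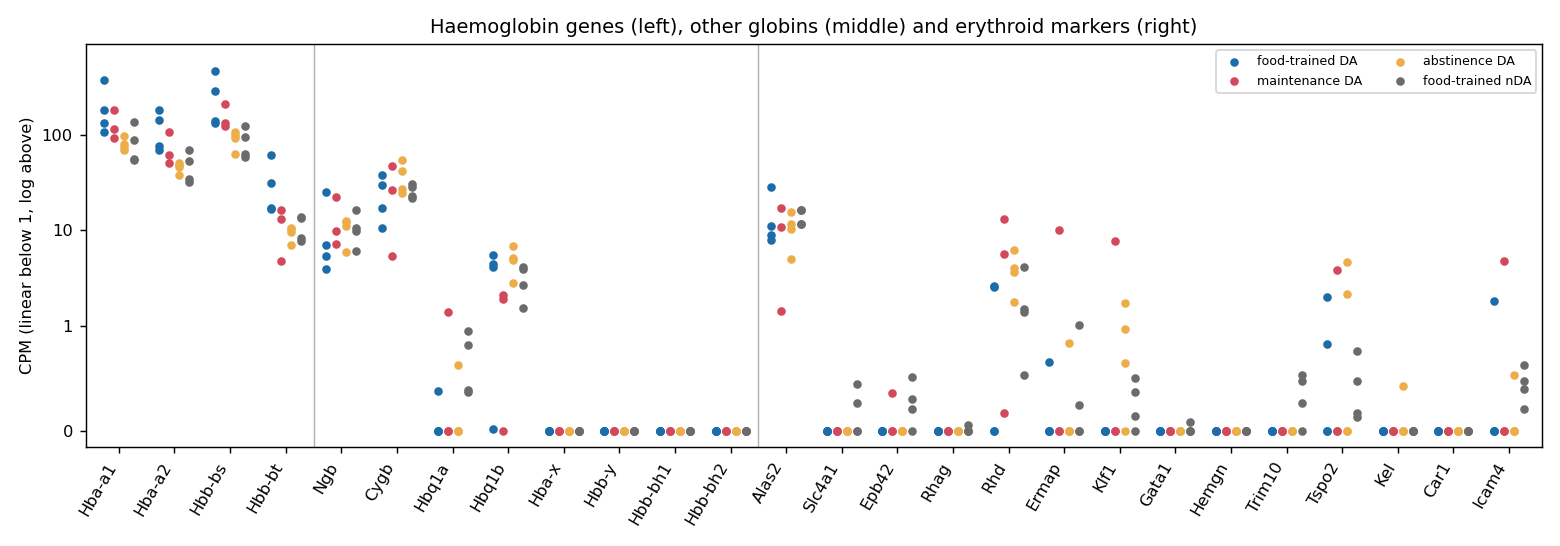
CPM of the haemoglobin genes, other globins and erythroid markers in every library (linear below 1, log above), coloured by group. The embryonic globins are at 0 in all 15 libraries, and of the erythroid markers Alas2 reaches 28.2 CPM while Slc4a1 and Rhag are at 0 in all DA libraries.

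Markers of vessels, leukocytes and platelets were compared as list sums and gene by gene. The summed vascular markers were 102 to 412 CPM in food-trained DA and 422 to 725 CPM in nDA nuclei. The summed leukocyte and platelet markers were 21.0 to 33.4 CPM in food-trained DA and 81.6 to 268 CPM in nDA nuclei. Of 18 vascular genes tested, 0 passed in either direction. Their fitted differences were positive for 2 and negative for 16, with a median of -1.84 on the log2 scale. Of 9 leukocyte and platelet genes 2 passed as lower (Lyz2 and Cd3e), and the fitted differences were positive for 2 and negative for 7. Some genes of these lists had higher means in DA nuclei without passing, and a pair of them, picked after their values were seen, is given here. Itga2b, an integrin of platelets and megakaryocytes, had 4.23 to 11.8 CPM in food-trained DA and 1.42 to 2.59 CPM in nDA nuclei, without overlap. Egfl7, an endothelial gene, had 16.6 to 77.4 CPM and 21.1 to 30.3 CPM, with overlap. The part of these cells in the haemoglobin values was not tested. Among glial markers, 5 of 8 microglial, 6 of 8 oligodendrocyte and 4 of 7 astrocyte genes passed as lower in DA nuclei, and 0 passed as higher. Between stages 0 genes of these lists passed. Between abstinence and food training, 0 of 7 astrocyte, 2 of 8 oligodendrocyte and 4 of 8 microglial genes had positive fitted differences. So did 1 of 13 dopamine identity, 7 of 18 vascular and 2 of 5 leukocyte and platelet genes. In the same order, 1, 6, 5, 6, 10 and 2 were positive between abstinence and maintenance, and 6, 3, 2, 3, 8 and 3 between maintenance and food training.

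Over the 11 DA libraries, the summed haemoglobin level was compared with 10 other measures, and r and rho are given as descriptions. With the erythroid marker sum, r was 0.18 and rho 0.00. With the vascular sum, r was -0.24, and with the leukocyte and platelet sum 0.56, which was 0.37 without the 2 libraries farthest from the median of the markers. The oligodendrocyte sum gave r = 0.54, the astrocyte sum 0.54, the microglial sum 0.13 and the dopamine identity sum -0.02. The library total gave r = -0.04, the GC slope 0.05 and the sum of ribosomal protein genes 0.38. Without the 2 libraries farthest from its median, the dopamine identity sum gave r = -0.56 and the erythroid sum -0.35. Computed in the same way, r was 0.44 for the oligodendrocyte sum, 0.24 for the astrocyte sum, 0.21 for the microglial sum, 0.09 for the library total, -0.08 for the ribosomal protein sum, -0.11 for the GC slope and -0.35 for the vascular sum. As deviations from the stage means, r was 0.62 for the ribosomal protein sum, 0.59 for the leukocyte and platelet sum, 0.53 for the astrocyte sum, 0.45 for the erythroid sum and 0.43 for the oligodendrocyte sum. On the same footing it was 0.30 for the GC slope, 0.30 for the library total, 0.20 for the microglial sum, -0.25 for the vascular sum and -0.41 for the dopamine identity sum. The erythroid sum, the ribosomal protein sum, the GC slope and the library total thus each gave r of either sign, depending on which libraries and which deviations were used.

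DA replicate 1, with the highest haemoglobin level, also had the highest ribosomal protein sum, 4696 CPM against 3065 to 3101 CPM in the other food-trained DA libraries. Ribosomal protein messenger RNA is abundant in cytoplasm, and the sum was 1597 to 2462 CPM in nDA nuclei. At maintenance it was 4037 to 4505 CPM, above the other food-trained libraries, while the haemoglobin sum there was 280 to 518 CPM. At abstinence the ribosomal protein sum was 2776 to 3741 CPM, overlapping the food-trained DA libraries, while the haemoglobin sum was 177 to 264 CPM, below all of them. The part of RNA from outside nuclei in the haemoglobin values was not tested.

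**Figure D5:**
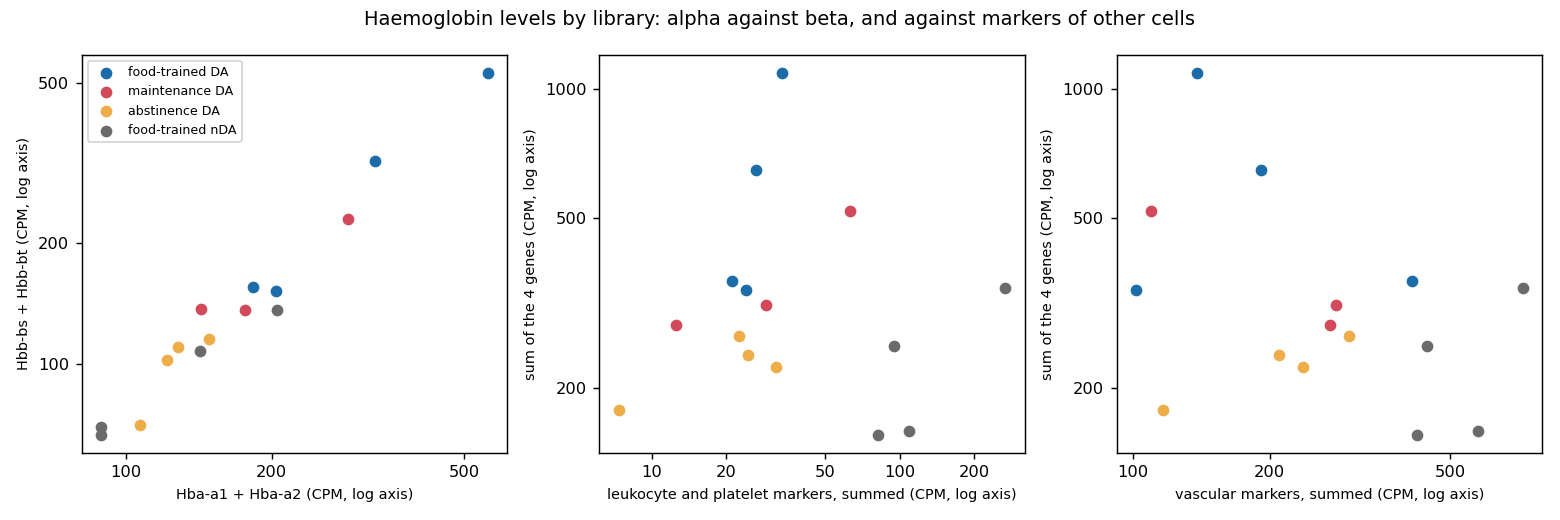
Left, summed beta against summed alpha CPM; middle and right, the sum of the 4 haemoglobin genes against summed leukocyte and platelet markers and summed vascular markers, all on log axes, 1 point per library. The nDA libraries lie at 81.6 to 268 CPM of leukocyte and platelet markers with haemoglobin sums of 156 to 342 CPM.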

How the data were processed

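RNA of sorted nuclei was sequenced from 15 libraries made with a low-input cDNA kit, per the labels' protocols. The authors deposited whole-number counts per gene, and a second deposited table held the same counts (0 cells differed in its 10 columns). That table leaves out food-trained DA replicate 3 and the nDA libraries. Per the submitters' processing notes, Trim Galore 0.6.7, cutadapt 1.18, STAR 2.7.10a, StringTie 2.1.5 and DESeq2 1.38.3 were used with mm10 (GRCm38). Their settings, any use of strand and the treatment of reads that fit several genes are not given in the sources used here, and such reads could move counts between the genes of a pair.

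Groups came from the sample titles. Counts were analysed with edgeR 4.0.16 in R 4.3.3: genes were kept by filterByExpr, scaled by TMM and compared by the two-sided quasi-likelihood F-test with Benjamini-Hochberg adjustment over all genes tested, at 0.05. DA and nDA nuclei were compared in the 8 food-trained libraries, and stages as contrasts in a fit of the 11 DA libraries. SEs are the absolute log2 difference divided by the square root of F. Sums of members were refitted as 1 row. Correlations used log2 CPM (prior count 2). Scripts were tested on simulated data; the share of changed genes first asked for was missed for DA against nDA, and other criteria replaced it after that result was seen.

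The members, the gene lists and the tests were chosen with earlier results of these data known. Named are the members, genes of the lists and the 8 genes most like the haemoglobin sum, leaving out Gm and Rik symbols. The table holds 0 mitochondrially encoded genes, so their share could not be used; the ribosomal protein sum and the GC slope were added after seeing the data. Alternatives were other scalings, filters, library sets, a replicate block, DESeq2 1.42.0, prior counts and leaving out each library. Some genes of the erythroid list enter its sum but are not reported singly here.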

Additional observations from a re-analysis of the deposited data

Results flagged for a closer look

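Groups of 4 libraries were searched for a single library far from the others, in 69 group and measure combinations, of which chance would mark about 1 in 20; 5 were marked. In food-trained DA nuclei, replicate 1 stood apart for Alas2 (28.2 CPM, others 7.83 to 11.1), Ngb (24.9 CPM, others 3.87 to 7.01) and the ribosomal protein sum (4696 CPM, others 3065 to 3101). In nDA nuclei, replicate 2 stood apart for the leukocyte and platelet sum (268 CPM, others 81.6 to 109) and the ribosomal protein sum (2462 CPM, others 1597 to 1631). No member, pair sum or share within the members was marked. These 2 libraries also had the highest haemoglobin sums of their groups, 1091 and 342 CPM.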

How the results depend on the processing

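The members kept the sign of their differences in 64 of 64 alternative values for DA against nDA, 68 of 68 for maintenance against food training, 72 of 72 for abstinence against food training and 63 of 68 for abstinence against maintenance. With the term for the 4 libraries, the summed log2 difference was -1.60 for maintenance against food training and 0.16 for abstinence against maintenance. Leaving out 1 library each gave 0.99 to 1.70 for DA against nDA, -1.08 to -0.28, -1.64 to -1.0 and -0.90 to -0.36 for the stage comparisons in the same order. The cause of these moves was not tested.

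Counts of genes called moved more. For DA against nDA, 2534 genes became 1643 with at least 10 counts in every library, 3883 with DESeq2 and 775 with a replicate block. For maintenance against food training, 25 became 109, 977 and 0 in that order, 1 with only the 2 groups, 0 with the term, and 5 to 78 when 1 library was left out. For abstinence against food training, 0 became 140 with DESeq2 and stayed 0 with the block. For abstinence against maintenance, 34 became 22 with upper quartile scaling, 69, 793 and 2 in the same order, 15 with all 15 libraries, 22 with only the 2 groups, 1 with the term, and 6 to 73 when 1 library was left out. Where maintenance kept 2 libraries, the fit pooled the spread of all groups.

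Replicate numbers are shared in the labels, which do not say whether same-numbered DA and nDA libraries came from the same mice. These libraries deviated together at low r, 0.03 to 0.09, although 3 of 4 DA libraries correlated best with their own number. Pairing was therefore not settled, and the main fit did not use the numbers as pairs. With the replicate block the summed differences were 1.34 (SE 0.23), -0.78, -1.31 and -0.53. The block added calls between DA and nDA nuclei for the sum and for Hba-a2 and changed no call of a member or the sum between stages. Over all alternatives, 0 to 4 members were called for DA against nDA, and the sum in 6 of 15, where 3.92 to 20.5% of genes were called. For abstinence against food training, 1 of 18 alternatives (DESeq2) called members and the sum, with 0.753% of genes. For the other stage comparisons 0 of 17 called a member, with 0 to 5.25% of genes called. Each member had at least 226 counts in every library. For genes at 0, the count total alone does not set the level that could be detected. Hmox2, for example, had 0 counts in food-trained DA replicate 3 and 20.6 to 27.2 CPM in the other food-trained DA libraries. The effect of depth and of group size on the differences was not tested.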
